A study of Mus musculus with 12 samples.

Results

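Most S100 proteins, though not all, are small calcium sensors that act as dimers. In these, calcium binding opens a groove that holds a partner, such as an annexin or a cytoskeletal protein. S100a8 and S100a9 form calprotectin, which fills the cytosol of neutrophils and, once released, is read by the receptors Tlr4 and Ager. In bone marrow these proteins are known above all as products of maturing granulocytes, whereas several other family members are made by many cell types. The genes described here were 8 listed members of the family, *S100a8*, *S100a9*, *S100a6*, *S100a4*, *S100a10*, *S100a11*, *S100a13* and *S100a1*, each matched by symbol to 1 of the 55421 Ensembl genes of the count table. The list was chosen by symbol with the counts of these same libraries, by group, in view, so group differences of its members are descriptions and not independent evidence. All 8 members were abundant enough for the test, which covered 15999 genes.

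RNA was sequenced from sorted bone marrow endothelial cells of mice at 20 weeks of age, with 3 libraries in each of 4 groups. Controls were naive C57BL/6J mice, hypertension was produced in C57BL/6J mice by angiotensin II released over 8 weeks from an osmotic minipump, and atherosclerosis was that of Apoe(tm1Unc) mice, which lack *Apoe*, after a western diet of 10 weeks. Myocardial infarction (MI) was produced in C57BL/6J mice by permanent coronary ligation and cells were taken 2 days later according to the labels, where the written protocol has a later day. The atherosclerosis group thus differs from the controls in genotype and diet together, the same 3 control libraries serve all comparisons, and the labels number the libraries of each group 2, 3 and 4. By the published legend as many mice as libraries were used in a group, so the replicates are taken as single mice.

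Libraries held between 17007088 and 25136936 counts, and levels are given as CPM, counts scaled to a common library size and corrected by TMM factors between 0.9343 and 1.056. *Apoe* averaged 10.6 CPM in the atherosclerosis libraries against 781 CPM in controls, as the genotype labels have it. Defining endothelial markers were low for a sort of that cell type: *Cdh5* (VE-cadherin) had a median of 3.01 CPM and *Pecam1* (CD31) of 20.1 CPM, and 23 endothelial markers summed to 238 to 424 CPM of all counts. By contrast, 16 neutrophil markers, none an S100 gene, summed to 34094 to 83382 CPM, 13 erythroid markers to 11055 to 43525 CPM and 10 monocyte markers to 1921 to 3222 CPM. No marker list had a gene at 0 counts in every library. All values below therefore describe the RNA of the sorted fraction, in which fewer cells of a type and less RNA per cell cannot be told apart.

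All members lie on chromosome 3 of GRCm38, in 2 blocks separated by 2824766 bases. The first block holds *S100a1* (90511034 to 90514392, minus strand), *S100a13* (90514435 to 90524581, plus), *S100a4* (90603771 to 90606045, plus), *S100a6* (90612882 to 90624181, plus), *S100a8* (90668978 to 90670035, plus) and *S100a9* (90692632 to 90695721, minus). The second holds *S100a11* (93520488 to 93526287, plus) and *S100a10* (93555080 to 93564643, plus). *S100a8* and *S100a9* are 22596 bases apart, whereas *S100a1* and *S100a13* start head to head with 42 bases between them.

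Upstream sequences are shown for both calprotectin genes, whose transcripts varied together, and for the stretch shared by *S100a1* and *S100a13*, whose transcripts showed no such relation over all 12 libraries (r = 0.13, but 0.73 without atherosclerosis 2 and hypertension 4). They are from RefSeq on GRCm38.p6, each written 5′ to 3′ along its gene, the last along *S100a13*. Capitals mark letters of 4 motifs searched on both strands: C/EBP (TTNNGNAA), TATA box (TATAAA), ETS (GAGGAA) and AP-1 (TGANTCA). For *S100a8* the bases before the GENCODE start are given, and for *S100a9* the 250 bases before its start. The RefSeq start of *S100a8*, from which the distances below are counted, lies downstream of its GENCODE start. Its TATA box letters and its ETS letters at 36 bases are therefore not in the stretch printed.
S100a8, chr3:90668821-90668977, plus strand: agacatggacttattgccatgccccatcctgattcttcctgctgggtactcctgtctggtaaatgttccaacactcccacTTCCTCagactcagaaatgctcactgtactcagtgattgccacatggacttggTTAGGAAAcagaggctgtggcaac
S100a9, chr3:90695722-90695971, minus strand: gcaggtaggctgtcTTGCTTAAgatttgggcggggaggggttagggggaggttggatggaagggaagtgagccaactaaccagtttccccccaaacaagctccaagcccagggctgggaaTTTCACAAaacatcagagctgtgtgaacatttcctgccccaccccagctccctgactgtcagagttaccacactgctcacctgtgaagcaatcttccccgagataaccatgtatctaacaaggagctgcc
S100a1 to S100a13, chr3:90514393-90514434, plus strand: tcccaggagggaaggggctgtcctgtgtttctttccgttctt

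The 250 bases before the RefSeq start of *S100a8* held C/EBP letters once, 117 bases before the start, ETS letters at 170 and 36 bases, and TATA box letters at 30 bases. Those of *S100a9* held C/EBP letters at 236 and 130 bases, and none of the other 3 motifs. C/EBP letters are in 36.8% of 32851 RefSeq promoters of that length, ETS letters in 23.3%, TATA box letters in 12.4% and AP-1 letters in 6.75%. Of the other members with an entry, *S100a11* had AP-1 letters at 136 and 38 bases and ETS letters at 153 bases, *S100a4* had TATA box letters at 31 bases, and *S100a6*, *S100a13* and *S100a1* had none. These matches describe letters in a window and say nothing about binding.

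*S100a9* and *S100a8* were by far the most abundant members. Per kilobase of exon, *S100a9* averaged 9604 CPM, rank 4 of 15992 genes, and *S100a8* 5007 CPM, rank 9. Together they held 90.9% to 96.1% of the counts on the 8 members, which themselves took 0.293% to 1.66% of all counts of a library. In controls, the levels per kilobase fell from 11000 ± 3496 CPM (SD, n = 3) for *S100a9* and 5796 ± 1751 for *S100a8* to 176 ± 42.0 for *S100a11*, 126 ± 25 for *S100a1*, 120 ± 20.0 for *S100a13* and 109 ± 12.5 for *S100a6*. *S100a10* followed at 51.0 ± 9.71 CPM per kilobase and *S100a4* at 9.59 ± 1.70. From *S100a11* to *S100a6* neighbours in this order lay within their spread, whereas *S100a10* and *S100a4* each lay below the member before it by more than the spread.

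The counts of a pair of members were limited by sequence that they share with other genes. Of the 584 exonic bases of *S100a4*, 302 (51.7%) are shared on the same strand with the read-through gene *Gm42674*, which had 0 counts in all 12 libraries, and reads that lie in 2 genes are not counted by the tool used. Of the 50-base windows in *S100a11* transcripts, 41.1% also occur in the pseudogenes *Gm12854*, *Gm29240* and *Gm7665*. The other 6 members shared no exonic base and no such window with another gene of GENCODE M21, which is close to but not the annotation of the files. Levels of *S100a4* and *S100a11* per length are therefore uncertain.

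*S100a8*, the smaller calprotectin chain, stood at 5425, 3294 and 3349 CPM in control replicates 2, 3 and 4, and at 2803, 2487 and 1217 CPM in hypertension. It reached 1056, 4410 and 3480 CPM in atherosclerosis and 6883, 4060 and 3234 CPM in MI. Every hypertension library lay below every control library. The atherosclerosis libraries reached from below the controls into their range, and the MI libraries spanned the control range.

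*S100a9*, its partner chain, stood at 7844, 4815 and 4566 CPM in controls and at 3593, 3401 and 2083 CPM in hypertension. Atherosclerosis libraries held 1536, 6638 and 4745 CPM, and MI libraries 10162, 5547 and 5232 CPM. The lowest and highest of the 12 libraries, atherosclerosis 2 and MI 2, were the same for both chains and differed 6.62-fold for *S100a9*. The ratio of *S100a8* to *S100a9* counts moved little: it averaged 0.703 ± 0.0265 (SD, n = 3) in controls, 0.699 ± 0.102 in hypertension, 0.695 ± 0.0351 in atherosclerosis and 0.676 ± 0.0570 in MI. Groups overlapped in that ratio, whose lowest value, 0.584, was that of hypertension 4.

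*S100a10*, also called p11, joins annexin A2 in a complex at the membrane. It stood at 73.9, 61.2 and 50.4 CPM in controls, 44.9, 44.7 and 32.4 CPM in hypertension, 31.1, 62.0 and 55.5 CPM in atherosclerosis, and 77.7, 52.4 and 56.5 CPM in MI. Hypertension libraries again lay below all controls. *S100a11*, a partner of annexin A1, stood at 114, 73.4 and 82.5 CPM in controls and at 43.3, 47.3 and 26.5 CPM in hypertension. It spread most of all members, 8.21-fold over the 12 libraries: atherosclerosis libraries held 20.5, 82.1 and 131 CPM and MI libraries 169, 71.0 and 67.5 CPM.

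*S100a6*, or calcyclin, binds the calcyclin-binding protein Cacybp. Its control libraries held 164, 154 and 131 CPM and its hypertension libraries 109, 114 and 84.9 CPM, with no overlap. Atherosclerosis gave 62.0, 140 and 141 CPM and MI 310, 138 and 186 CPM. *S100a13*, which takes part in the export of Fgf1 and Il1a without a signal peptide, held 100, 84.9 and 71.5 CPM in controls, 70.6, 66.1 and 41.9 CPM in hypertension, 31.7, 87.8 and 61.4 CPM in atherosclerosis and 103, 92.6 and 109 CPM in MI. Its MI libraries lay above all those of hypertension and atherosclerosis, and its hypertension libraries below all controls.

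*S100a4*, a regulator of non-muscle myosin known from motile cells and fibroblasts, was the least abundant member, with 66 to 232 counts a library. It held 4.48, 6.39 and 5.93 CPM in controls, 4.31, 4.77 and 5.11 CPM in hypertension, 4.67, 3.99 and 3.36 CPM in atherosclerosis and 9.94, 4.87 and 13.4 CPM in MI. MI libraries 2 and 4 were above all others, and MI 3 lay among the controls. *S100a1*, known from heart and skeletal muscle as a partner of the ryanodine receptor and the calcium pump Atp2a2, held 103, 89.2 and 68.9 CPM in controls, 97.5, 87.6 and 95.5 CPM in hypertension, 108, 78.1 and 46.9 CPM in atherosclerosis and 89.4, 109 and 131 CPM in MI. Its disease groups all overlapped with the controls.

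**Figure D1:**
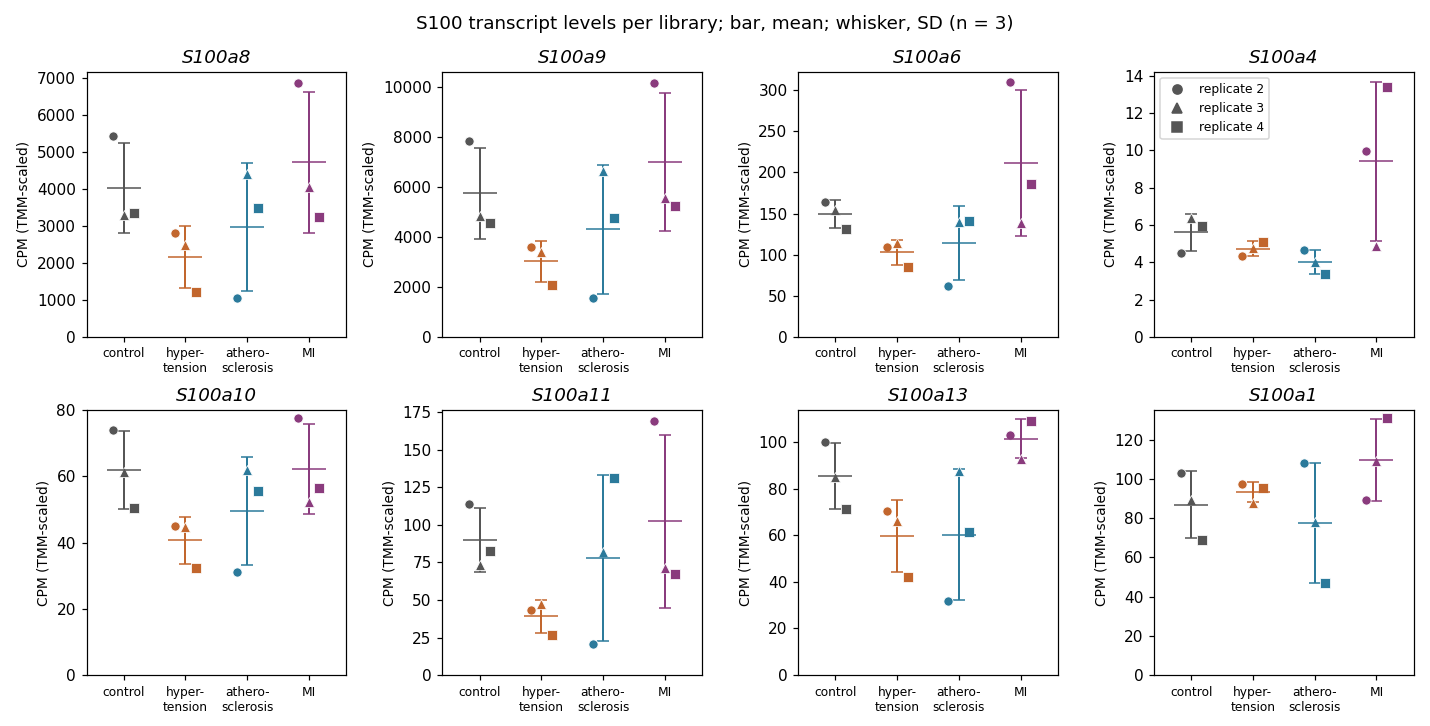
Transcript level of each S100 member in CPM (linear axis from 0) for 3 libraries in each of the 4 groups, with replicates 2, 3 and 4 as circle, triangle and square, the mean as a bar and the SD as a whisker. Hypertension libraries lie below all control libraries for 6 members, and atherosclerosis 2 (circle) and MI 2 (circle) are the lowest and highest libraries for S100a8 and S100a9.

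In mice with hypertension, 6 of the 8 members (*S100a8*, *S100a9*, *S100a6*, *S100a10*, *S100a11* and *S100a13*) were lower in all 3 libraries than in all 3 controls, and none was higher. Over all tested genes 7.81% lay below the controls in this way and 9.02% above. The fitted log2 fold change was -0.89 (SE 0.47) for *S100a8*, -0.92 (0.45) for *S100a9*, -0.54 (0.32) for *S100a6*, -0.60 (0.25) for *S100a10*, -1.21 (0.52) for *S100a11* and -0.52 (0.30) for *S100a13*. For *S100a4* it was -0.25 (0.31) and for *S100a1* 0.10 (0.26), the latter turning to -0.04 without control 4. The median was -0.57 over the members and -0.01 over all tested genes. No member was called by edgeR's quasi-likelihood test at a Benjamini-Hochberg adjusted p under 0.05, with adjusted p from 0.951 to 0.974, and 0% of all tested genes were called. An unadjusted p under 0.05 was met by 2 members, *S100a10* (0.0323) and *S100a11* (0.0376), and by 3.71% of all genes, and DESeq2 and edgeR's likelihood-ratio test called 0 members. The 95% interval of *S100a8* ran from -1.98 to 0.20 and that of *S100a9* from -1.97 to 0.12. With no filter on low counts beyond 1 count, 3 members passed the quasi-likelihood test, *S100a11* at an adjusted p of 6.48e-06, *S100a9* at 0.0394 and *S100a8* at 0.0479. In that setting 170 of 36003 genes were called, and the log2 fold change of *S100a11* was little changed at -1.19. In all other settings, by edgeR or DESeq2, the adjusted p of *S100a11* was 0.431 or more.

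In Apoe-/- mice with atherosclerosis, all 8 fitted changes were below 0 and no member was separated from the controls in either direction, compared with 4.45% of all genes lower and 5.06% higher. The log2 fold changes ranged from -0.17 (SE 0.26) for *S100a1* to -0.50 (0.30) for *S100a13*, with a median of -0.40 against 0.01 over all tested genes. The calprotectin chains were at -0.43 (0.47) and -0.42 (0.45). The quasi-likelihood test called 0 members, with adjusted p from 0.868 to 0.967, against 0.144% of all genes, and DESeq2 and the likelihood-ratio test also called 0. An unadjusted p under 0.05 was met by 0 members and 5.97% of all genes. Library atherosclerosis 2, the lowest for 6 members, set much of these values: without it *S100a8* was at -0.02 and *S100a11*, at -0.21 with all libraries, turned to 0.25. Without atherosclerosis 4, *S100a1* turned to 0.09.

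After MI, no fitted change was below 0 and again no member was separated from the controls, compared with 4.59% of all genes lower and 4.27% higher. *S100a4* had the highest log2 fold change at 0.75 (SE 0.31), followed by *S100a6* at 0.50 (0.32), *S100a1* at 0.34 (0.26), *S100a9* at 0.28 (0.45), *S100a13* at 0.25 (0.30), *S100a8* at 0.23 (0.47), *S100a11* at 0.19 (0.51) and *S100a10* at 0.01 (0.25). The quasi-likelihood, likelihood-ratio and DESeq2 tests called 0 members, each adjusted p of the first being 1.0, and 0% of all genes were called by the first. At an unadjusted p under 0.05 stood 1 member, *S100a4* (0.0321), and 2.8% of all genes. Without MI 2, the values of *S100a8*, *S100a9*, *S100a10* and *S100a11* turned to -0.14, -0.09, -0.18 and -0.38, and that of *S100a6* was 0.11. Without MI 4, *S100a4* was at 0.40.

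**Figure D2:**
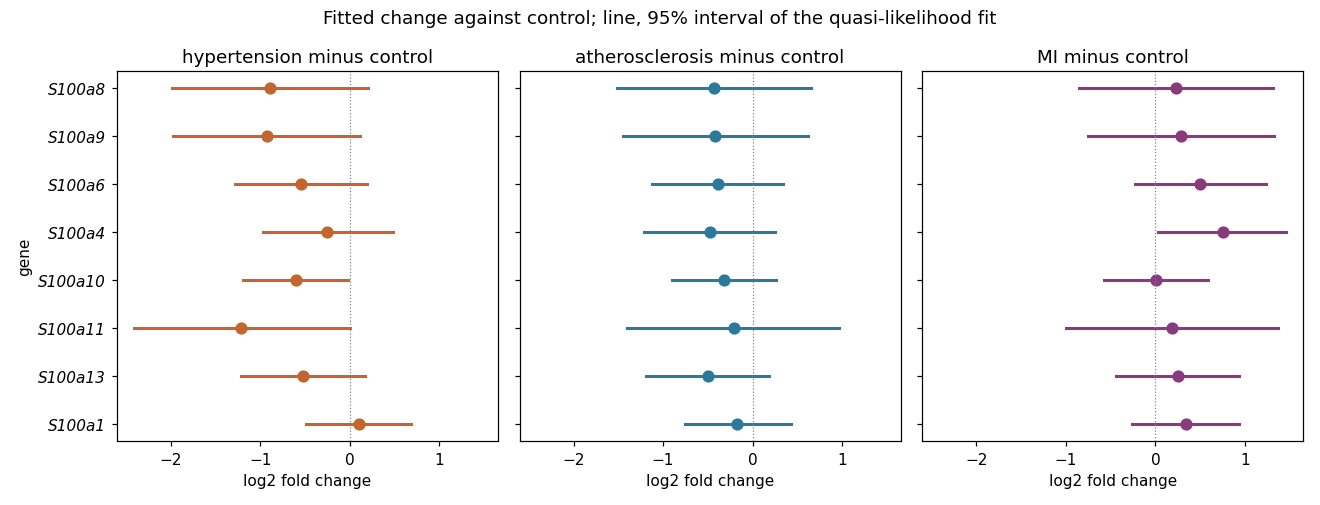
Fitted log2 fold change of each member against control (horizontal axis) in the 3 disease groups, with the estimate as a point and its 95% interval as a line. Estimates are below 0 for 7 members in hypertension and 8 in atherosclerosis and not below 0 for any member after MI, and all intervals cross 0 but those of S100a10 and S100a11 in hypertension, which end just below it, and of S100a4 after MI.

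Disease groups were then compared with each other. As 0 members were called against control, these contrasts cannot show whether a change is particular to one group. Between hypertension and atherosclerosis 0 members were called by the quasi-likelihood test, against 0.0625% of all genes, and 0 members had an unadjusted p under 0.05, against 5.94%. The median log2 difference, hypertension minus atherosclerosis, was -0.22 over the members and -0.03 over all tested genes. Between MI and atherosclerosis 0 members were called, against 0.269%. In that contrast *S100a4* came nearest, with a log2 difference of 1.23 (SE 0.32, adjusted p = 0.136), and *S100a4* and *S100a13* were higher in all MI libraries than in all atherosclerosis libraries, as were 6.23% of all genes. An unadjusted p under 0.05 was met there by 3 members, *S100a4*, *S100a6* and *S100a13*, and by 12.7% of all genes.

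The widest distance lay between MI and hypertension, where the median log2 difference of the members was 1.02 and that of all genes 0.01. *S100a11* was 2.62-fold, *S100a9* 2.31-fold, *S100a8* 2.18-fold and *S100a6* 2.06-fold higher after MI, and *S100a4* 1.99-fold. Libraries did not overlap for 6 members, all higher after MI, against 9.34% of all genes higher in this way. At an unadjusted p under 0.05 were 7 members, all but *S100a1*, and 8.41% of all genes. The quasi-likelihood test nevertheless called 0 members and 0% of all genes in this contrast, the smallest adjusted p among the members being 0.529. In the test of any difference among the 4 groups, 0.144% of all genes and 0 members were called, *S100a4* having the smallest adjusted p of 0.414, and 7.48% of all genes and 2 members, *S100a4* and *S100a6*, had an unadjusted p under 0.05. Members varied together across libraries, as described next, so that these counts are not those of separate genes.

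Over the 12 libraries the members fell into a block of 6 and a pair apart from it. Among the 15 pairs of *S100a8*, *S100a9*, *S100a10*, *S100a6*, *S100a11* and *S100a13*, Pearson's r of log2(CPM + 0.5) ran from 0.77 to 0.99, and all 15 had an adjusted p under 0.05 in permutation tests over 28 pairs (largest 0.00605). Spearman's rho ran from 0.52 to 0.95, with 14 pairs under 0.05. For *S100a8* and *S100a9* r was 0.99 (p = 1e-05, the smallest that 100000 permutations can give, adjusted p = 7e-05) and rho 0.94 (permutation p = 5e-05, adjusted p = 0.00056). It was 0.98 without the 2 libraries farthest from the median, atherosclerosis 2 and hypertension 4. With each group's mean removed, r of the block ran from 0.74 to 0.98, and 14 pairs stayed under 0.05, so the relation was also present within groups. Without the 2 libraries farthest from the median, 12 of the 15 pairs stayed under 0.05. The pairs lost, all without atherosclerosis 2 and hypertension 4, were those of *S100a13* with *S100a8*, *S100a10* and *S100a11*. Their r was then 0.64 (adjusted permutation p = 0.0821), 0.68 (0.0606) and 0.31 (0.544). Over all libraries r of *S100a11* and *S100a13* was 0.77. The place of *S100a13* in the block thus rested in part on these 2 libraries.

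Pairs with *S100a4* or *S100a1* had r between -0.41 and 0.56 and none of these 13 had an adjusted p under 0.05 in the permutation test (smallest 0.121). *S100a1* and *S100a13*, which start 42 bases apart, had r of 0.13 (rho 0.32, permutation p = 0.666 and 0.308, adjusted p = 0.729 and 0.446). Without atherosclerosis 2 and hypertension 4, r of this pair was 0.73 (permutation p = 0.0095, adjusted p = 0.0222). All values of a library share its depth and scaling factor.

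The genes whose levels were most like those of a member over the 12 libraries are given as a description. Nearest to *S100a8* were *Gstm1* (r = 0.984), *Serpinb1a* (0.983) and *Dnajc30* (0.982), and nearest to *S100a9* were *Tmsb4x* (0.993), *Gstm1* (0.987) and *Brk1* (0.980). *Tmsb4x*, which encodes the actin-binding thymosin beta 4, also led for *S100a10* (0.972), before *Gstm1* (0.968) and *Crip1* (0.964). *S100a11* was followed by *Slfn2* (0.985), *Fbxl6* (0.980) and *Slpi* (0.979), and *S100a6* by *AA467197* (0.983), *I830127L07Rik* (0.983) and *Hcst* (0.970). For *S100a13* these were *Ndufa3* (0.980), *Ebp* (0.974) and *Mrpl33* (0.970), and for *S100a1* *Vps28* (0.981), *Ndufv3* (0.958) and *Ndufa1* (0.954). *Ndufa3*, *Ndufv3* and *Ndufa1* encode subunits of respiratory complex I. For *S100a4* the nearest were *Igkv4-61* (0.905), *6430590A07Rik* (0.900) and *Dcp2* (0.856), less close than for any other member.

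Neutrophil markers moved with the block. Their sum was 61786 ± 7645 CPM (SD, n = 3) in controls, 45229 ± 7390 in hypertension, 47005 ± 14037 in atherosclerosis and 70616 ± 12016 in MI. In hypertension every library lay below every control (exact permutation p = 0.1, two-sided, the smallest that 3 libraries against 3 allow), and for atherosclerosis and MI the exact p was 0.3 and 0.4. The sum was lowest in atherosclerosis 2 (34094 CPM) and hypertension 4 (36874 CPM) and highest in MI 2 (83382 CPM), the same libraries that were lowest and highest in *S100a9*. All 16 markers were tested, *Ngp* holding a median of 25929 CPM, *Elane* 7142 CPM, *Ltf* 7002 CPM, *Mpo* 4488 CPM and *Camp* 4413 CPM.

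Across libraries r with this sum was 0.95 for *S100a9*, 0.94 for *S100a8*, 0.93 for *S100a13*, 0.91 for *S100a10*, 0.89 for *S100a6* and 0.80 for *S100a11*, each under 0.05 in permutation tests adjusted over 80 combinations of members and marker lists. For *S100a9* rho was also 0.95 (permutation p = 1e-05, adjusted p = 0.0008), r without atherosclerosis 2 and hypertension 4 was 0.87, and r with group means removed was 0.94 (permutation p = 0.00079, adjusted p = 0.0316). Without these 2 libraries the calls of *S100a8*, *S100a9* and *S100a13* held (adjusted permutation p = 0.0347 each). Those of *S100a10* (r = 0.77, adjusted permutation p = 0.149), *S100a6* (0.76, 0.149) and *S100a11* (0.51, 0.418) were lost. *S100a10* still passed by rho (0.86, adjusted permutation p = 0.0154) and with group means removed (r = 0.91, adjusted permutation p = 0.0488). With group means removed, *S100a6* (adjusted permutation p = 0.169), *S100a11* (0.201) and *S100a13* (0.163) did not pass, and by rho *S100a6* (0.0584) and *S100a11* (0.153) did not. *S100a4* (r = 0.40, adjusted permutation p = 0.373) and *S100a1* (r = 0.13, adjusted permutation p = 0.85) did not pass.

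**Figure D3:**
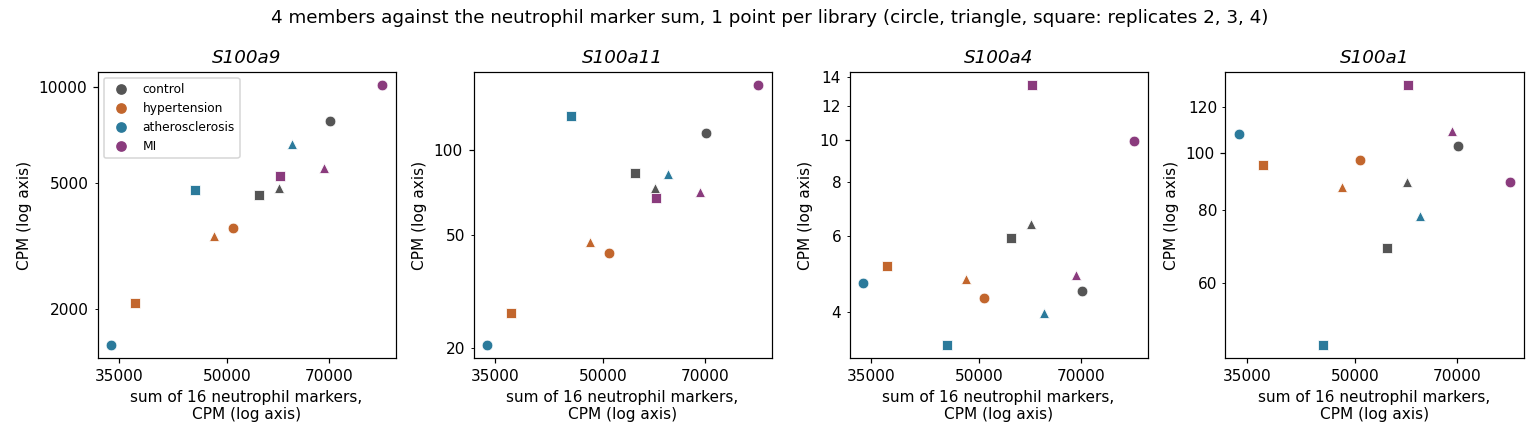
CPM of S100a9, S100a11, S100a4 and S100a1 (vertical, log axes) against the sum of 16 neutrophil markers in CPM (horizontal, log axis), with 1 point for each of the 12 libraries coloured by group. S100a9 follows the sum (r = 0.95) from atherosclerosis 2 at the lower left to MI 2 at the upper right, whereas S100a4 (r = 0.40) and S100a1 (r = 0.13) spread widely at a given sum.

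Other cell type lists were compared in the same way. B cell markers (8 genes, 182 to 1190 CPM, highest in atherosclerosis 2 and lowest in MI 2) correlated negatively with all 6 members of the block, down to r = -0.90 for *S100a6*, each under 0.05 in the adjusted permutation test. These 6 calls rested on 2 libraries: without MI 2 and atherosclerosis 2, r ran from -0.46 to -0.64 (adjusted permutation p from 0.404 to 0.455), and by rho none passed (adjusted p from 0.153 to 0.24). Within groups, with group means removed, r of the B cell list still ran from -0.66 for *S100a13* to -0.89 for *S100a11*. None of these passed (adjusted permutation p from 0.169 to 0.263). Erythroid markers passed with 3 members, *S100a8* (r = 0.74), *S100a9* (0.73) and *S100a11* (0.71), monocyte markers with *S100a6* alone (0.77) and T and NK cell markers with *S100a13* alone (0.80). None of these 5 passed by rho or without the 2 libraries farthest from the median of the list. With group means removed, however, erythroid r was 0.95 for *S100a8* (adjusted permutation p = 0.0316), 0.96 for *S100a9* (0.064), 0.81 for *S100a6* and 0.88 for *S100a11*, as high as or higher than for the neutrophil list (0.95, 0.94, 0.77 and 0.76), so that within groups the neutrophil list did not stand out from the erythroid one for these genes. The sum of endothelial markers passed with no member, with r from -0.57 for *S100a1* to 0.22 for *S100a11*, nor did macrophage, megakaryocyte, stromal or eosinophil and basophil markers. Of the 80 combinations, 4 passed by rho, the neutrophil list with *S100a8*, *S100a9*, *S100a10* and *S100a13*, and 4 with group means removed, the neutrophil list with *S100a8*, *S100a9* and *S100a10* and the erythroid list with *S100a8*.

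**Figure D4:**
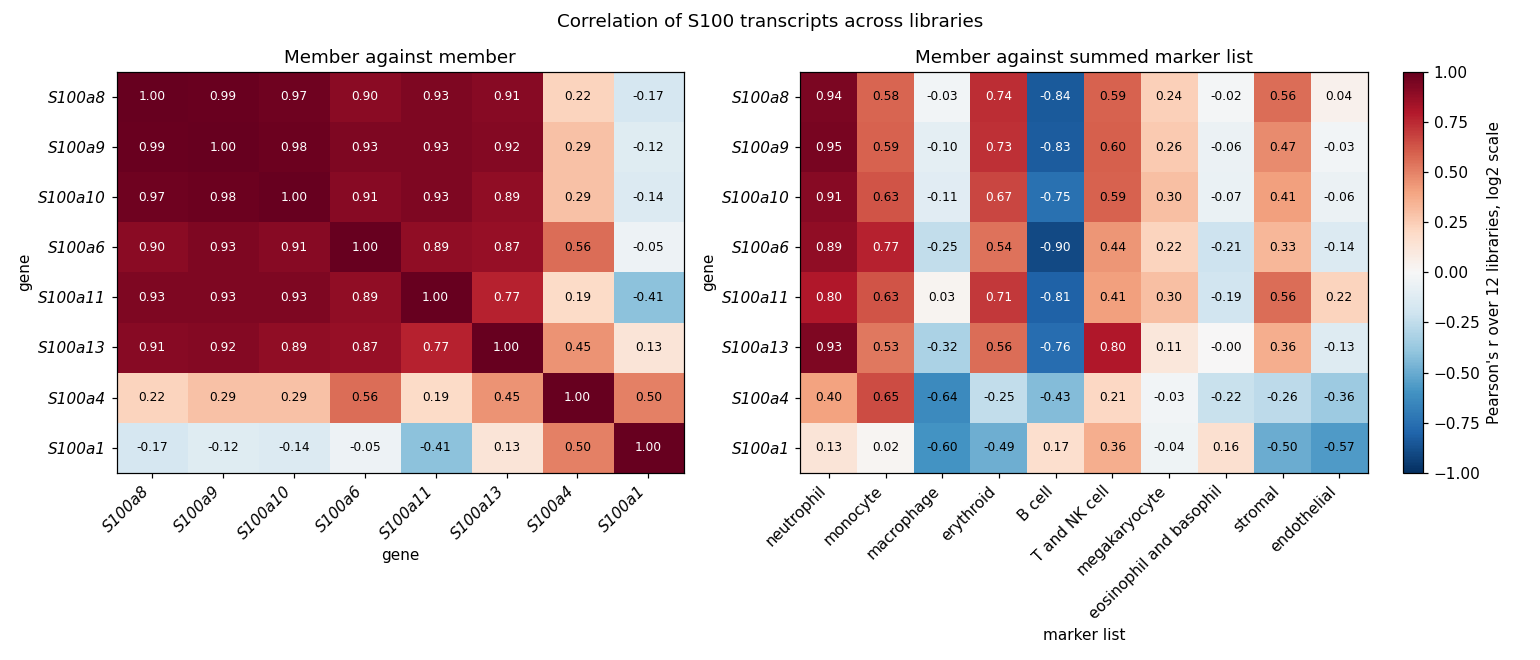
Pearson's r over the 12 libraries between S100 members (left) and between members and summed cell type markers (right), with red for positive and blue for negative values. The 6 members from S100a8 to S100a13 form a block of r from 0.77 to 0.99 that also follows the neutrophil list, while S100a4 and S100a1 stand outside it.

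When the log2 share of counts on the neutrophil markers was added to the fit, the changes of the block in hypertension came close to 0. *S100a8* moved from -0.89 to 0.14, *S100a9* from -0.92 to 0.09, *S100a6* from -0.54 to 0.03, *S100a13* from -0.52 to 0.05, *S100a10* from -0.60 to -0.09 and *S100a11* from -1.21 to -0.25. *S100a4*, outside the block, moved from -0.25 to -0.46. In atherosclerosis, *S100a8*, *S100a9* and *S100a11* turned from below 0 to 0.43, 0.37 and 0.61, and after MI they turned from above 0 to -0.24, -0.14 and -0.31. The log2 fold change of *S100a4* after MI was 0.83 with the covariate and 0.75 without. No member was called in any of these fits. The share came from the same libraries and correlated with the members of the block (r from 0.80 to 0.95), so this fit is a description. Neutrophil share and disease group overlap in hypertension as described above, and the part that neutrophil content has in the member values was not tested.

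**Figure D5:**
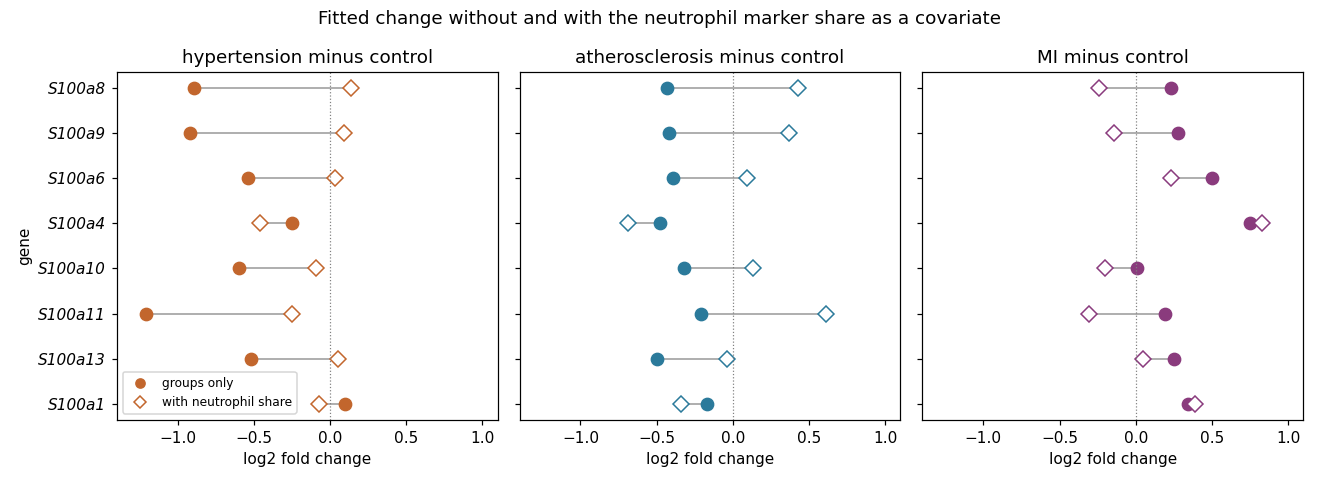
Log2 fold change of each member against control (horizontal axis) fitted with groups only (filled circles) and with the log2 neutrophil marker share as a covariate (open diamonds). In hypertension the 6 members of the block move to between -0.25 and 0.14, while S100a4 moves away from 0 in all 3 groups.

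Genes that work with the S100 proteins were followed as a list of 35 receptors, annexins, intracellular targets, export partners, oxidase subunits and plasminogen genes, of which 32 were tested and 0 called in any disease group. Against control, 6 were lower and 2 higher without overlap in hypertension, 3 lower and 1 higher in atherosclerosis, and none in MI. Over all tested genes, these shares were 7.81% and 9.02%, 4.45% and 5.06%, and 4.59% and 4.27%. The median log2 fold change was -0.12, -0.06 and 0.05 in these groups. Receptors of released S100 proteins all passed the filter: *Tlr4* held 10.3 to 27.4 CPM, its co-receptor *Ly96* 2.45 to 6.06 CPM and *Ager* 2.17 to 6.90 CPM, whereas *Bsg*, a receptor of S100a9, held 910 to 1554 CPM. *Ly96* and *Cd69* were lower in all hypertension libraries than in controls (log2 fold change -0.49 and -0.30). *Cd36* and *Bsg* were higher in all of them, at 187 against 115 CPM (0.70, SE 0.21) and 1363 against 990 CPM (0.46, SE 0.16), both with an adjusted p of 0.951.

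*Anxa1* and *Anxa2*, partners of S100a11 and S100a10, were lower in all hypertension libraries than in all controls. They were 2 of the 5 annexins listed, and *Anxa5*, *Anxa6* and *Anxa11* overlapped with controls there. Other partners of lowered members also overlapped, among them *Tlr4*, *Ager*, *Fgf1* and *Il1a*. So did *Cacybp*, the partner of S100a6, at 159 against 161 CPM (log2 fold change -0.01, SE 0.20). *Anxa1* averaged 2462 against 3928 CPM (log2 fold change -0.67, SE 0.43) and *Anxa2* 543 against 743 CPM (-0.45, SE 0.23). *Anxa2* and *Anxa5* were also below controls in all atherosclerosis libraries, at -0.35 and -0.27. *Tagln2*, an actin-binding protein, followed in hypertension at -0.51, and *Rac2*, which switches on the phagocyte oxidase, was at -0.43 in hypertension and -0.40 in atherosclerosis, below all controls in both. All 6 oxidase genes had a fitted change below 0 in hypertension, only *Rac2* without overlap. *Fgf1*, exported with S100a13, held 1.29, 1.41 and 1.78 CPM in atherosclerosis against 0.617, 0.433 and 0.427 CPM in controls, 3.03-fold (log2 1.60, SE 0.40, adjusted p = 0.292). *Ryr2*, *Syt1* and *Plg* were too low to test.

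The annotation holds 18 genes with an S100 symbol, the 8 members included. Of the other 10, *S100a16* was tested at 3.05 to 6.75 CPM, and *S100a3*, *S100a7a* and *S100b* were tested at 1.0 CPM or less in every library. *S100a3* was lower in all MI libraries than in controls, 0.164 against 0.404 CPM (log2 fold change -1.23, SE 0.67, adjusted p = 1.0), from at most 12 counts in a library. *S100a2*, *S100a5*, *S100a14*, *S100g*, *S100z* and *S100a11-ps* did not pass the filter.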

How the data were processed

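Bone marrow endothelial cells were sorted from 4 groups of mice, and their polyadenylated RNA was sequenced from strand-specific libraries. The authors aligned reads with STAR 2.7.3a to GRCm38.p6 (per the labels) and deposited raw counts per Ensembl gene, with the annotation given as release 98. Which strand column was used is not given in the sources used here. Counts were tested with edgeR 4.0.16 in R 4.3.3: filterByExpr, TMM factors, a quasi-likelihood fit with 1 coefficient for each of the 4 groups (8 residual degrees of freedom), two-sided tests and Benjamini-Hochberg adjustment over all 15999 tested genes, called under 0.05. DESeq2 1.42.0 and the likelihood-ratio test were alternatives. The fit was tested on simulated data.

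Members and gene lists were chosen with earlier results of these data known. Named besides the members were S100 genes that passed the filter, listed partners whose libraries did not overlap with controls, and the 3 tested genes with the highest r with each member. Lengths and positions came from GENCODE M21 (GRCm38). Promoters were from RefSeq, where 7 members matched and *S100a10* did not. Correlations used log2(CPM + 0.5) and 100000 permutations, marker sums CPM of total counts. At these depths, 3 counts, taken as the limit of a count of 0, correspond to 0.1193 to 0.1764 CPM, which covers counting error only. Alternatives changed scaling, filter, tool, libraries in the fit, replicate block, immunoglobulin and hemoglobin genes, a neutrophil covariate and each library in turn.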

Additional observations from a re-analysis of the deposited data

How the results depend on the processing

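The count of called members stayed at 0 in all 3 comparisons with control under every alternative run, including an adjusted p under 0.1, except that 3 members were called in hypertension with no filter on low counts, where 36003 genes were tested and 170 called. Over all genes 23 were called in atherosclerosis, and 2 to 432 over the alternatives. With the neutrophil share as a covariate the sign turned for *S100a8* (0.14), *S100a9* (0.09), *S100a6* (0.03), *S100a13* (0.05) and *S100a1* (-0.07) in hypertension, for *S100a8* (0.43), *S100a9* (0.37), *S100a6* (0.09), *S100a10* (0.13) and *S100a11* (0.61) in atherosclerosis, and for *S100a8* (-0.24), *S100a9* (-0.14), *S100a10* (-0.20) and *S100a11* (-0.31) in MI. *S100a10* in MI, at 0.01, also turned to -0.05 with total counts and -0.01 with no filter. The cause was not tested. Leaving out 1 library gave -0.04 to 0.24 for *S100a1* in hypertension, -0.81 to 0.25 for *S100a11* and -0.47 to 0.09 for *S100a1* in atherosclerosis, and -0.14 to 0.51 for *S100a8*, -0.09 to 0.57 for *S100a9*, -0.18 to 0.15 for *S100a10* and -0.38 to 0.41 for *S100a11* in MI. Same-numbered libraries of 2 groups correlated between -0.336 and 0.342 in their deviations from group means, so the numbers were not taken to pair them. With the replicate block 0 members were called in each comparison, and *S100a11* in hypertension was at -1.19. With 3 libraries a group, the 95% intervals of the calprotectin genes spanned over 2 log2 units, which limits what could be seen. These intervals used 8 residual degrees of freedom and are somewhat wider than the test implies.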

Other observations

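Between the outermost members on chromosome 3, over 3053610 bases, the annotation holds 75 protein-coding genes, 14 of them S100 genes. Of the other 61, which lie in the region known for genes of the cornified skin envelope, 55 had under 3 counts in every library. Of the 61, 4 passed the filter (*Gm9774*, *Pglyrp3*, *Pglyrp4* and *Tchh*), and of these only *Gm9774* in atherosclerosis had no overlap (log2 fold change -0.48, lower). Of the 14 S100 genes, 11 passed it.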
